A study of Drosophila melanogaster with 5 samples.

Results

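The UDP-glycosyltransferase genes of Drosophila melanogaster were followed in fly heads across 5 groups that differed in Levodopa feeding, neuronal histone H1 overexpression and temperature. Members were the protein-coding genes whose symbol in the 29 °C count table starts with Ugt followed by a digit, a rule that uses no measured value. It found 35 genes among 13968 protein-coding genes and 24034 features of that table. The same 35 gene identifiers were present among the 23882 features of the 25 °C table.

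UDP-glycosyltransferases are enzymes of the endoplasmic reticulum membrane that move a sugar from a UDP-sugar onto small, mostly fat-soluble molecules, which makes these molecules more soluble and easier to export. Insect members mainly use UDP-glucose as the donor, and the compounds they have been described to conjugate include plant toxins, odorants and the catechols that harden cuticle. In flies they are expressed in the fat body, gut and excretory tubules, and several are strongly expressed in the antennae, where they are thought to help clear odorants. They form the conjugation step of detoxification together with glutathione S-transferases and sulfotransferases, after oxidation by cytochromes P450 and before export by ABC transporters.

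Each group was 1 labelled sample of polyadenylated RNA. The labels name the tissue both as heads and as brain, and give no age or sex. The Levodopa 25 °C and control 25 °C groups were labelled wild type, and the Levodopa flies of both temperatures received Levodopa, the precursor of dopamine, at 4 g/L in their food for 7 days. The H1OE 29 °C group overexpressed histone H1 under an elav driver, active in neurons, that responds to temperature. These flies came from a cross kept at 18 °C, and the progeny spent 7 days at 29 °C. The Levodopa 29 °C and control 29 °C groups were labelled wild type, so the driver, the H1 strain and the cross of H1OE were not matched by label in either of them. No time at 29 °C was given for the control. Every 25 °C sample had 2 count columns, whose relation to separate flies was not given, and every 29 °C sample had 1.

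The depth was 25947583 to 30334054 counts per column at 25 °C and 24770629 to 26832877 at 29 °C. Levels scaled to library size are given as CPM (counts scaled to a common library size), and a gene with no count could still stand at up to 3 counts, or 0.0946 to 0.124 CPM depending on the library. Eye markers, among them the rhodopsin gene ninaE, summed to 22605 to 27784 FPKM (counts divided by exonic length and library size, as deposited) and neuronal markers to 267 to 566 FPKM, so eye tissue was present in every library. Between the columns of a sample, the mean variance over all features with 20 or more summed counts was 2.73 times (Levodopa) and 2.82 times (control) that of counting alone. Over the members it was 2.08 times in Levodopa (24 genes) and 1.69 times in control (23 genes). The 23 annotated copies of the histone H1 gene His1 summed to 0 counts in H1OE, in Levodopa 29 °C and in control 29 °C, so the overexpression could not be checked in these RNA libraries.

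The 35 genes fell into 13 numbered subfamilies, of which subfamily 37 had 8 members, 35 had 6, 36 and 303 had 4 each, and 49 and 302 had 3 each. The other 7 subfamilies (50, 301, 304, 305, 307, 316 and 317) had 1 member each. Coordinates are those of the deposited tables and equal those of the dm6 annotation for all 35 genes. On the dm6 build, 22 members lay in 6 runs of neighbouring members less than 5000 bases apart, and 13 stood alone. The largest run was on 3R from 11151026 to 11177910 and held 9 members of 4 subfamilies in the order Ugt302K1, Ugt302E1, Ugt302C1, Ugt35E1, Ugt35E2, Ugt35B1, Ugt35A1, Ugt304A1 and Ugt303A1. Ugt35C1, at 3R 11126597 to 11128328, was the member nearest to that run and lay outside it. Other runs were Ugt37C2, Ugt37E1 and Ugt37D1 (2L 16794211 to 16801584), Ugt36F1, Ugt36D1 and Ugt36E1 (2L 18819344 to 18829059), and Ugt49B1 with Ugt49C1 (2R 21212880 to 21217779). The remaining runs were Ugt37A2 with Ugt37A3 (3R 12739642 to 12743680, on opposite strands) and Ugt303B3, Ugt303B1 and Ugt303B2 (3R 23532945 to 23538908).

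All 35 members carried the UDP-glycosyltransferase domain PF00201 in the deposited annotation. For 24 of them the listed Swiss-Prot relative was the same insect enzyme, the UGT5 entry of the cochineal insect. Ugt50B3 stood apart with a human ceramide galactosyltransferase as its listed relative, 9 merged exon blocks and a span of 2R 5496674 to 5549543. Exonic length was 1513 bases in Ugt307A1 and up to 3316 bases in Ugt50B3. The exons of 4 members overlapped another gene, by 400 bases in Ugt36A1 (CG15418), 90 in Ugt49B1 (CG44245), 48 in Ugt36E1 (CG17597) and 11 in Ugt307A1 (Pvf2). The strand setting of the counting was not given, so reads in those stretches could not be assigned with certainty.

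Expression was concentrated in few members. At or above 10 FPKM in every library were 9 genes: Ugt35B1, Ugt35C1, Ugt36E1, Ugt37D1, Ugt49B1, Ugt49C1, Ugt301D1, Ugt302C1 and Ugt316A1. At or above 1 FPKM in every library were 16 genes. At the other end, 8 genes had fewer than 10 counts in every library, and Ugt307A1, Ugt49B2 and Ugt303B2 were listed at 0 in all 7. The other 5 of these were Ugt304A1, Ugt37A2, Ugt303B3, Ugt303B1 and Ugt35D1, so all 3 genes of the 303B run were at or near 0 in these heads.

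**Figure D1:**
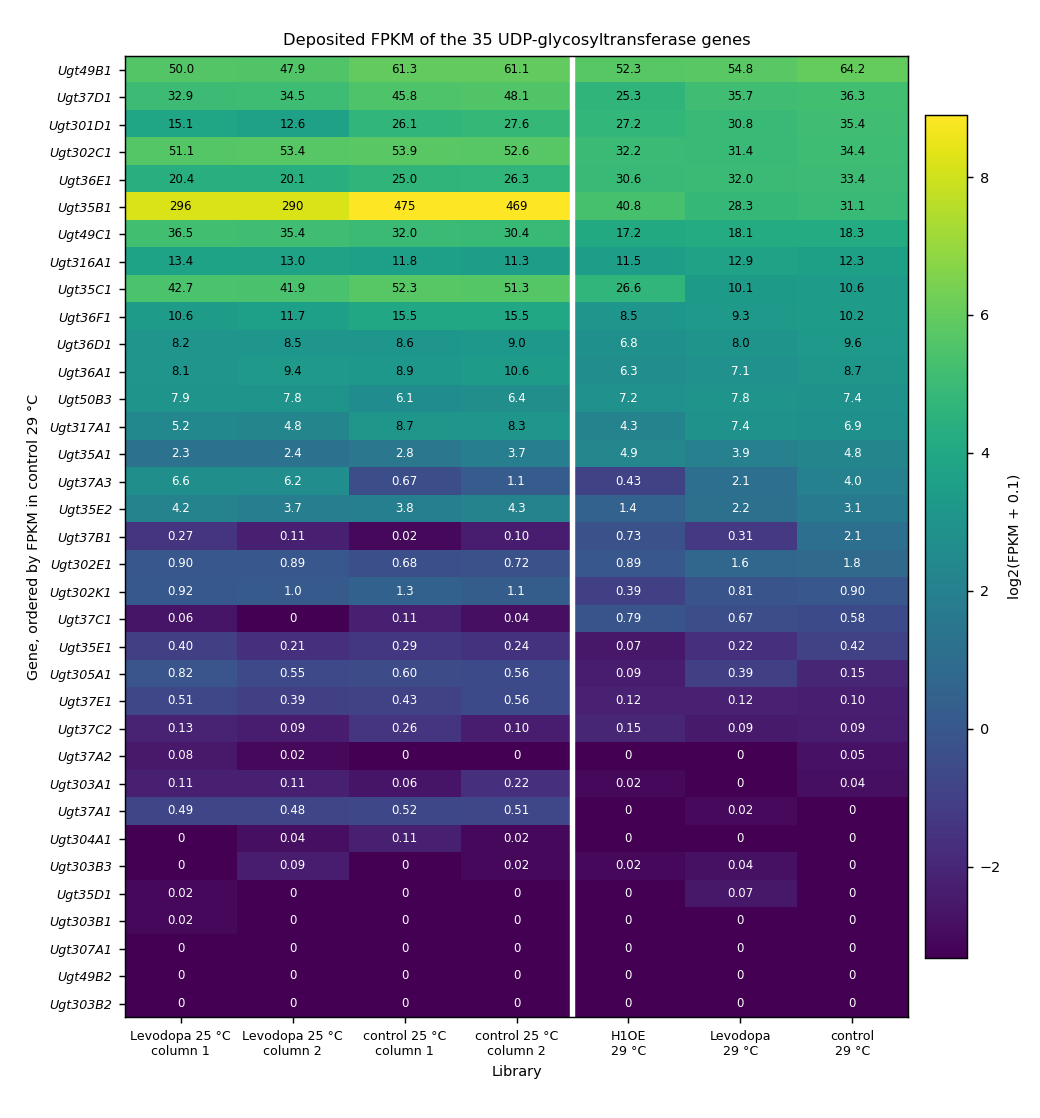
Deposited FPKM of the 35 genes (rows, ordered by the level in control 29 °C) in the 7 libraries (columns, the white line parts the 25 °C and 29 °C tables), with the value printed in each cell and colour on a log2(FPKM + 0.1) scale. Ugt35B1 is the brightest row at 25 °C, at 290 to 475 FPKM, and Ugt49B1 the highest at 29 °C, at 52.3 to 64.2 FPKM.

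The 5 members with the highest FPKM in control 29 °C were Ugt49B1, Ugt37D1, Ugt301D1, Ugt302C1 and Ugt36E1. Ugt49B1 had 52.3 FPKM in H1OE, 54.8 in Levodopa and 64.2 in control at 29 °C, and 49.95 and 47.9 in Levodopa against 61.3 and 61.1 in control at 25 °C. Ugt37D1 had 25.3, 35.7 and 36.3 FPKM in H1OE, Levodopa and control at 29 °C, and 32.9 and 34.5 in Levodopa against 45.8 and 48.1 in control at 25 °C. Ugt301D1 had 27.2, 30.8 and 35.4 FPKM in H1OE, Levodopa and control at 29 °C and, at 25 °C, 15.1 and 12.6 in Levodopa against 26.1 and 27.6 in control. For Ugt49B1, Ugt37D1 and Ugt301D1 H1OE was the lowest and control the highest of the 29 °C libraries. Ugt302C1 had 32.2, 31.4 and 34.4 FPKM in the same 29 °C order, and 51.1 and 53.4 in Levodopa against 53.9 and 52.6 in control at 25 °C. For Ugt49B1, Ugt37D1 and Ugt301D1 the Levodopa columns lay below both control columns at 25 °C, whereas for Ugt302C1 the FPKM of the 25 °C groups overlapped. Ugt36E1, which has been described in olfactory neurons of the antenna, had 30.6, 32.0 and 33.4 FPKM in H1OE, Levodopa and control at 29 °C. At 25 °C it had 20.4 and 20.1 FPKM in Levodopa and 25.0 and 26.3 in control.

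Ugt35B1, an antennal enzyme in earlier descriptions, set the level of the whole family at 25 °C. The FPKM of all members summed to 616 and 608 in Levodopa and 843 and 841 in control at 25 °C, and to 307 in H1OE, 306 in Levodopa and 337 in control at 29 °C. Ugt35B1 made up 48.0% and 47.8% of the sum in the Levodopa columns and 56.4% and 55.8% in the control columns at 25 °C. At 29 °C its share was 13.3% in H1OE, 9.26% in Levodopa and 9.23% in control. Without it, the other 34 genes summed to 320 and 317 FPKM in Levodopa against 368 and 372 in control at 25 °C, and to 266 in H1OE, 278 in Levodopa and 306 in control at 29 °C. The sums in Levodopa and in H1OE were below their controls with and without Ugt35B1.

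**Figure D2:**
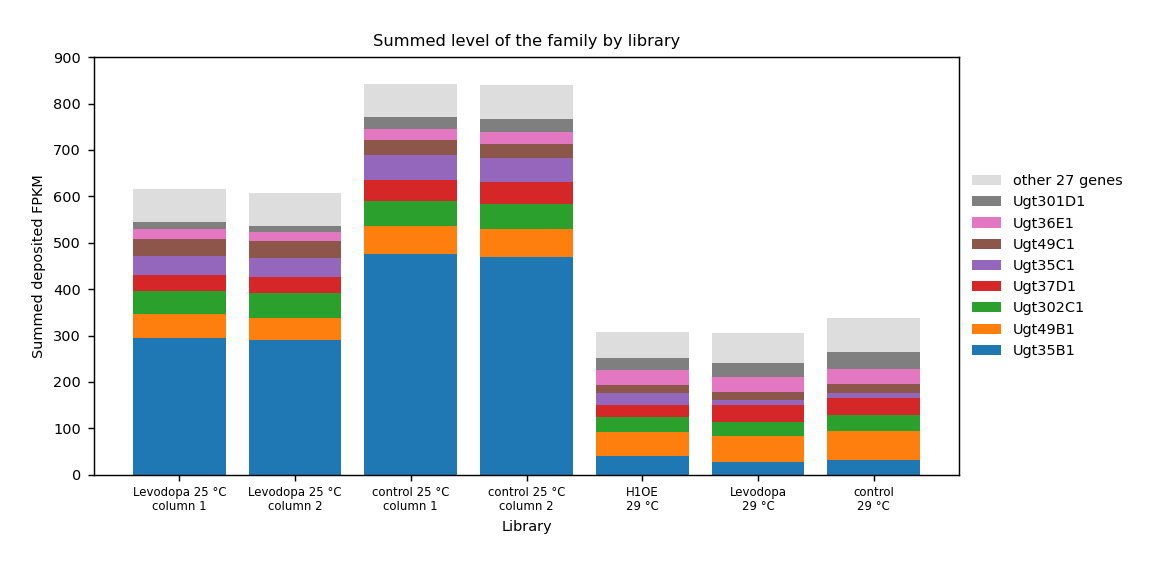
Stacked bars of the deposited FPKM summed over the 35 genes in each of the 7 libraries, with the 8 genes of highest level in colour and the other 27 in grey. The bars reach 608 to 616 in Levodopa and 841 to 843 in control at 25 °C, and 306 to 337 at 29 °C, and the Ugt35B1 segment accounts for most of the gap between the temperatures.

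The first comparison asked how the family stood in Levodopa-fed flies at 25 °C, where edgeR's quasi-likelihood test could use the 2 columns of each sample. At an adjusted p under 0.05 (Benjamini-Hochberg over all 11799 features tested) and at least a 2-fold change, 1 member rose and 1 fell of the 26 that had at least 10 counts in 1 column. Over all features, 609 passed the same thresholds, or 5.16%, so the members' 2 of 26 was near the background. Of the 609, 238 were higher and 371 lower. Total-count scaling, which put the median of all features at 0.13, gave 356 higher and 208 lower, and removal of the trend on gene length gave 242 higher and 213 lower. The fold changes of the members leaned down, with 8 positive and 18 negative and a median log2 fold change of -0.29, beside a median of -0.00 and 49.8% positive over all features. With total-count scaling the median of the members was -0.15, beside the 0.13 of all features. Neither median of the members was corrected for the trend on gene length, and the part of that trend in the lean was not tested. These p-values rest on the spread between columns of 1 sample, which may be technical, and the common coefficient of variation between columns was 2.87%.

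Ugt37A3, at 3R 12741958 to 12743680, rose with Levodopa at 25 °C. It had 331 and 316 counts in the Levodopa columns and 29 and 52 in the control columns, or 10.4 and 9.97 CPM against 1.17 and 1.895 CPM. Both Levodopa columns were far above both control columns. The means were 10.2 ± 0.332 CPM in Levodopa and 1.53 ± 0.513 CPM in control (SD, n = 2 columns each), with a log2 fold change of 2.72 (SE 0.19, edgeR adjusted p = 6.67e-47). Its neighbour Ugt37A2, 540 bases away on the other strand, had 4 and 1 counts in Levodopa and 0 and 0 in control and was too low to test.

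Ugt301D1, at 2L 18509560 to 18513512, fell with Levodopa at 25 °C. It had 28.5 and 24.0 CPM in Levodopa and 54.4 and 57.7 CPM in control, and the groups did not overlap. The log2 fold change was -1.09 (SE 0.07, edgeR adjusted p = 2.09e-61). This call lay close to the 2-fold minimum and was lost with total-count scaling, where the log2 fold change was -0.96 beside a median of 0.13 over all features, with the trend on gene length removed (-0.97) and without the second Levodopa column (-0.98).

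A further 11 members passed an edgeR adjusted p of 0.05 without reaching 2-fold, all of them negative. In all, 13 of the 26 members passed that threshold, against 58.5% of all features. Ugt317A1 was closest to the minimum, with 9.15 and 8.65 CPM in Levodopa against 16.98 and 16.4 CPM in control, a log2 fold change of -0.90 (SE 0.11, edgeR adjusted p = 8.22e-15). Ugt35B1 had 469 and 465 CPM in Levodopa against 832 and 825 CPM in control, a log2 fold change of -0.83 (SE 0.02). Both genes were clearly separated between the groups, with Levodopa the lower. Ugt37D1 (-0.62), Ugt36F1 (-0.61) and Ugt35A1 (-0.61) followed, and these 5 genes with Ugt301D1 were the 6 that were lower at a 1.5-fold minimum. Ugt50B3, Ugt49C1 and Ugt316A1 were the well-expressed members with positive fold changes, from 0.06 to 0.18 on the log2 scale, and none of them passed the test.

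Markers of other cell types moved beside these values at 25 °C. The 13 olfactory organ markers, among them the odorant receptor partner Orco and the odorant-binding proteins of the antenna, summed to 4605 and 4559 FPKM in Levodopa and 6788 and 6733 FPKM in control. By edgeR 11 of the 13 differed at an adjusted p under 0.05 (also 11 unadjusted), all under 2-fold, so that none met both thresholds in edgeR or DESeq2. Of all features, 58.5% passed that adjusted p without a fold minimum, the share to set beside such counts of markers. Their median log2 fold change was -0.38. Orco itself had 71.4 and 67.9 FPKM in Levodopa and 75.1 and 75.6 FPKM in control. The receptor partner Ir25a had 20.9 and 22.8 CPM in Levodopa and 22.1 and 21.3 CPM in control. Ir8a, another, had 6.75 and 6.79 CPM in Levodopa and 4.76 and 6.41 CPM in control, so neither of them was lower in both Levodopa columns. The 8 neuronal markers summed to 445 and 442 FPKM in Levodopa and 273 and 267 FPKM in control, with a median log2 fold change of 0.57. All 8 differed at an edgeR adjusted p under 0.05 (also 8 unadjusted) but by less than 2-fold, and none met both thresholds in either tool. The 8 muscle markers all differed at an edgeR adjusted p under 0.05 too (also 8 unadjusted), but in both directions. Their median was 0.35, and none was past 2-fold in edgeR or DESeq2. They summed to 601 and 594 FPKM in Levodopa against 533 and 529 FPKM in control. Mlc2 was lower, with 266.96 and 263.31 FPKM in Levodopa against 293.28 and 287.06 in control. Act88F was lower too, with 17.82 FPKM in both Levodopa columns against 21.05 and 19.62 in control. All other muscle markers were higher in both Levodopa columns. Of the fat body markers, 8 of 12 were tested and the storage protein gene Lsp2 rose, while the list summed to 465 and 457 FPKM in Levodopa and 436 and 439 FPKM in control. The trend on gene length was not removed from these marker values, and its part in them was not tested. The part of these marker differences in the Ugt values was not tested either, and in bulk RNA fewer cells of a type and less RNA per cell cannot be told apart.

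**Figure D3:**
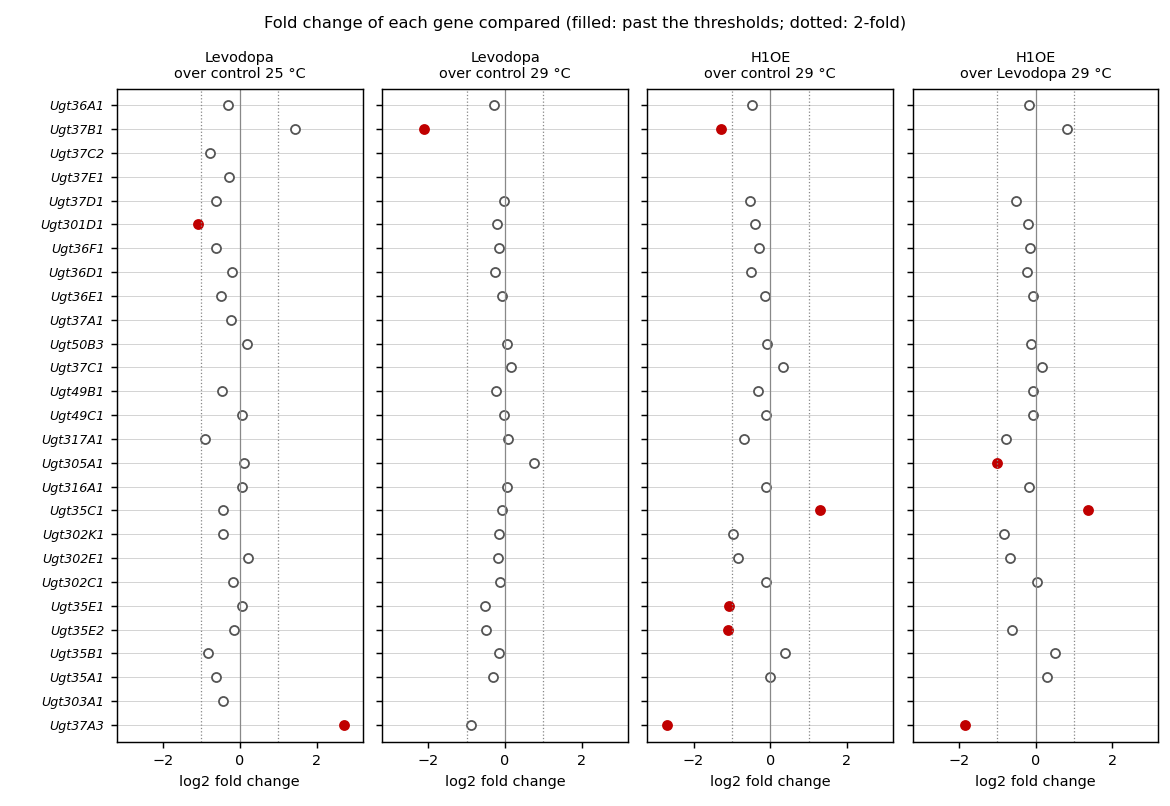
Log2 fold change of each member compared (rows, in genome order) in the 4 comparisons (panels), with filled points past the thresholds, dotted lines at 2-fold and no point where the counts were too low. Ugt37A3 lies at 2.72 for Levodopa at 25 °C and at -0.88, -2.70 and -1.82 in the 29 °C panels.

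The 29 °C groups had 1 library each and allow no test, so genes there are described by a size rule: at least 2-fold after 10 counts were added to both scaled libraries, in genes with at least 10 counts in 1 of them. For Levodopa against control at 29 °C, 23 members could be compared, none was higher and 1 was lower. Over all features 300 of 11145 met the rule, or 2.69%, near the members' share of 1 in 23. Of the 300, 128 were higher and 172 lower, or 167 and 130 of 297 when the trend on gene length was removed. The members again leaned down, with 5 positive and 18 negative and a median log2 difference of -0.14, beside -0.01 over all features. This control is also the one against which H1OE was set, so the directions of the 29 °C comparisons with control are not independent of each other.

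Ugt37B1, at 2L 6225048 to 6226842, was the member past the size rule. It had 14 counts in Levodopa 29 °C and 86 in control 29 °C, which is 6.66-fold lower (95% counting interval 3.76 to 12.7). At 25 °C the same gene had 14 and 6 counts in Levodopa against 1 and 5 in control, with an edgeR log2 fold change of 1.43 that did not pass (SE 1.02, adjusted p = 0.224). At 25 °C the groups were thus only a few counts apart. The intervals take in counting error alone, because 1 library per group gives no spread between samples. PCR copies of a molecule also could not be told from separate molecules.

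Ugt37A3, which rose with Levodopa at 25 °C, stood the other way at 29 °C. It had 90 counts in Levodopa 29 °C and 160 in control 29 °C, a 1.93-fold lower level (95% interval 1.48 to 2.53) that did not reach the size rule. Ugt305A1 (3L 4059770 to 4061923) had 20 counts in Levodopa and 7 in control, a ratio of 2.63 with an interval of 1.07 to 7.37. The most abundant genes moved little between these libraries, with log2 differences from -0.24 to -0.04 in Ugt49B1, Ugt301D1, Ugt302C1, Ugt36E1 and Ugt37D1. Ugt301D1, which fell at 25 °C, had 1575 counts in Levodopa 29 °C and 1681 in control 29 °C, a log2 difference of -0.21.

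Part of the fat body markers moved strongly between the same 2 libraries, and olfactory markers did not. Of 11 fat body markers compared, 5 were lower in Levodopa 29 °C (Lsp1alpha, Lsp2, Yp1, Yp2 and fit) and Fbp1 was higher, with a median log2 difference of -0.79. The list summed to 2483 FPKM in Levodopa and 3834 in control, of which Lsp1beta, not past the rule, made 1278 and 2198. FASN1 (467 against 514 FPKM) and apolpp (519 against 537 FPKM) differed little. None of the 13 olfactory markers met the rule, and they summed to 2829 FPKM in Levodopa and 3103 FPKM in control. Whether the differences in those fat body markers had a part in the level of Ugt37B1 was not tested.

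H1 overexpression was the comparison in which most members met the rule. Of 22 members compared between H1OE and control at 29 °C, 1 was higher and 4 were lower, beside 808 of 11340 features, or 7.13%. The members leaned down here as well, with 3 positive and 19 negative and a median log2 difference of -0.36, beside -0.00 and 49.3% positive over all features. The neuronal driver, the H1 strain, the cross and its rearing were all part of H1OE and absent from control by label, so their contributions cannot be told apart.

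Ugt35C1 was the gene that was higher in H1OE. It had 1190 counts in H1OE, 433 in Levodopa and 424 in control at 29 °C, or 43.5, 16.6 and 17.6 CPM. The Levodopa and control libraries were close to each other and H1OE stood above both. Against control the ratio was 2.47 (95% counting interval 2.21 to 2.77), and against Levodopa it was 2.63 (2.35 to 2.94). At 25 °C, by contrast, the gene had 67.7 and 67.1 CPM in Levodopa and 91.5 and 90.1 CPM in control, a log2 fold change of -0.43 that passed an edgeR adjusted p of 0.05 (1.36e-18) but not 2-fold.

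Ugt37A3 was the member furthest down in H1OE. It had 19 counts in H1OE, 90 in Levodopa and 160 in control at 29 °C, so that the 3 libraries stood in that order. Its level in H1OE was 9.56-fold lower than in control (95% interval 5.93 to 16.3) and 4.96-fold lower than in Levodopa (2.998 to 8.61). Ugt37B1 was lowest in Levodopa instead, with 34 counts in H1OE, 14 in Levodopa and 86 in control. It was 2.87-fold lower in H1OE than in control (1.91 to 4.41), and its ratio of H1OE to Levodopa was 2.32 (1.21 to 4.68), which did not reach the size rule.

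The neighbours Ugt35E1 and Ugt35E2, which lie 102 bases apart within the 3R run, were both lower in H1OE. Ugt35E2 (3R 11166177 to 11167981) had 63 counts in H1OE, 97 in Levodopa and 130 in control, 2.34-fold lower in H1OE than in control (1.72 to 3.22). Ugt35E1 (3R 11164423 to 11166074) had 3 counts in H1OE, 9 in Levodopa and 16 in control, and its ratio of H1OE to control was 0.165 with a wide interval of 0.031 to 0.577. In both genes the order was H1OE lowest and control highest. At 25 °C Ugt35E2 had 222 and 194 counts in Levodopa against 169 and 215 in control, and Ugt35E1 had 19 and 10 against 12 and 11, so that the groups overlapped. Just outside the rule were Ugt302K1, with 27 counts in H1OE against 55 in control (log2 difference -0.96), and Ugt302E1, with 38 against 68 counts (-0.85). With the added count raised to 30, or with the whole counting interval required to lie past 2-fold, only Ugt35C1 and Ugt37A3 of the 5 met the rule.

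The genes of the 3R run did not share a direction in H1OE. Ugt35B1, 521 bases beyond Ugt35E2, had 1828 counts in H1OE, 1219 in Levodopa and 1243 in control, a ratio of 1.30 to control (1.20 to 1.39). Ugt35A1, the next gene, had 233, 178 and 206 counts in the same order and a log2 difference from control of -0.01. Ugt302C1 had 1719, 1613 and 1639 counts, with a log2 difference from control of -0.11. The run therefore held members below control (Ugt302K1, Ugt302E1, Ugt35E1 and Ugt35E2), members near it and 1 member above it.

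**Figure D4:**
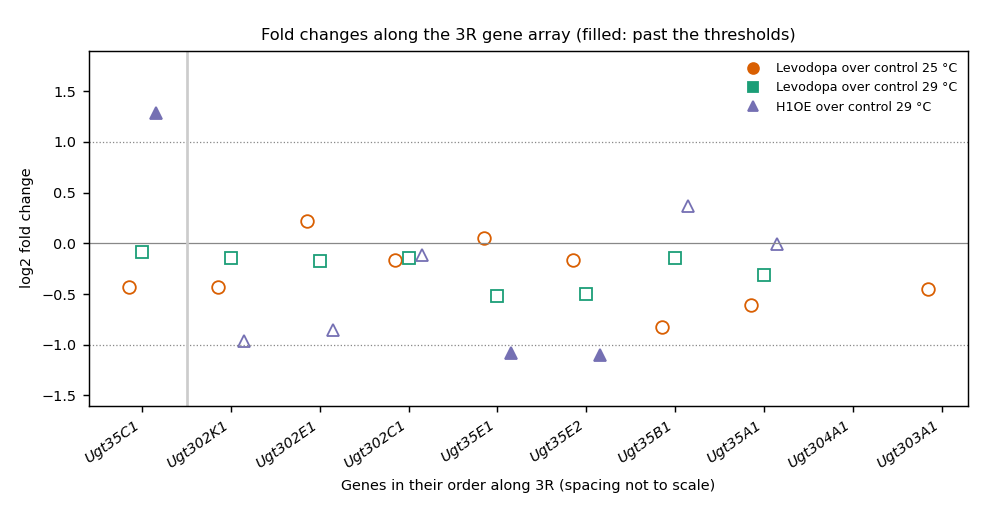
Log2 fold change or difference of Ugt35C1 (left of the grey line) and the 9 genes of the 3R run in genome order, for Levodopa over control at 25 °C (circles) and 29 °C (squares) and H1OE over control at 29 °C (triangles), with filled symbols past the thresholds and no symbol where counts were too low. H1OE points run from 1.29 in Ugt35C1 to -1.10 in Ugt35E2, with Ugt35B1 at 0.37 between them.

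Set directly against Levodopa 29 °C, H1OE had 1 member higher (Ugt35C1) and 2 lower (Ugt37A3 and Ugt305A1) of 22, beside 700 of 11364 features, or 6.16%. Ugt305A1 had 5 counts in H1OE and 20 in Levodopa, 4.19-fold lower (95% interval 1.52 to 14.3), and no longer met the rule with 30 counts added (log2 difference -0.52). It had 49 and 33 counts in Levodopa against 31 and 32 in control at 25 °C, where it did not pass the test. The median log2 difference of the members was -0.15, beside 0.00 over all features, with 6 positive and 16 negative. The well-expressed Ugt317A1 had 214 counts in H1OE, 354 in Levodopa and 307 in control at 29 °C, with log2 differences of -0.76 from Levodopa and -0.68 from control. H1OE was thus the lowest library for that gene, below the 2-fold minimum.

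Part of the fat body and olfactory markers also stood apart in H1OE. Of 9 fat body markers compared with control, 6 were lower (Lsp1alpha, Lsp1beta, Lsp2, Yp1, Yp2 and fit), with a median log2 difference of -2.27. The list summed to 922 FPKM in H1OE against 3834 FPKM in control, of which Lsp1beta alone made 116 and 2198 FPKM. FASN1 (458 against 514 FPKM) and apolpp (292 against 537 FPKM) did not meet the rule. Of 13 olfactory markers, the receptor partners Orco, Ir8a and Ir25a were lower and the other 10 did not meet the rule, with a sum of 2217 FPKM in H1OE against 3103 FPKM in control. Orco had 7.9 FPKM in H1OE, 43.8 in Levodopa and 39.8 in control. Ugt35B1 and Ugt36E1, noted above for the antenna, had log2 differences of 0.37 and -0.14 between H1OE and control. The other members were not sorted by expression in olfactory organs, so these values do not stand for all antennal members. None of the 8 neuronal, 8 eye or 8 muscle markers met the rule in any 29 °C comparison. The part of the marker differences in the Ugt values was not tested.

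Markers of further tissues and cell types were checked in the same way. The Malpighian tubule genes Uro and salt were at 0 counts in H1OE, Levodopa and control at 29 °C. Of the 6 genes listed with them and compared, only byn met the rule, with 4 counts in H1OE against 21 in control. That is 0.056 against 0.331 FPKM, too low a level to read as a difference in the tubules. The 11 gut markers summed to 453 FPKM in H1OE, 310 in Levodopa and 557 in control at 29 °C, most of it from Amy-p and Amy-d, near-identical copies that may share reads, and to 17.5 FPKM in both Levodopa columns against 53.2 and 52.3 FPKM in the control columns at 25 °C. Their calls were LysP lower for Levodopa at 25 °C and Amy-p lower for Levodopa at 29 °C, and in H1OE against control Amy-p and LysS were higher and Amy-d lower. Against Levodopa 29 °C, H1OE also had both Amy-p (11138 against 849 counts) and LysS (46 against 6 counts) higher. Among oenocyte, glial and haemocyte markers, Levodopa at 25 °C had Cyp4g1, PPO1 and NimB4 lower and gcm higher, and none was called at 29 °C. Cyp4g1 was low, at 0.10 and 0.12 FPKM in Levodopa against 1.57 and 1.76 in control. The oenocyte list stood the other way, at 950 and 946 FPKM against 762 and 758, most of it from Desat1 (918 and 915 against 712 and 707). The call of gcm rested on 32 counts in Levodopa against 6 in control summed over columns (edgeR adjusted p = 0.0363), and DESeq2 did not make it.

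**Figure D5:**
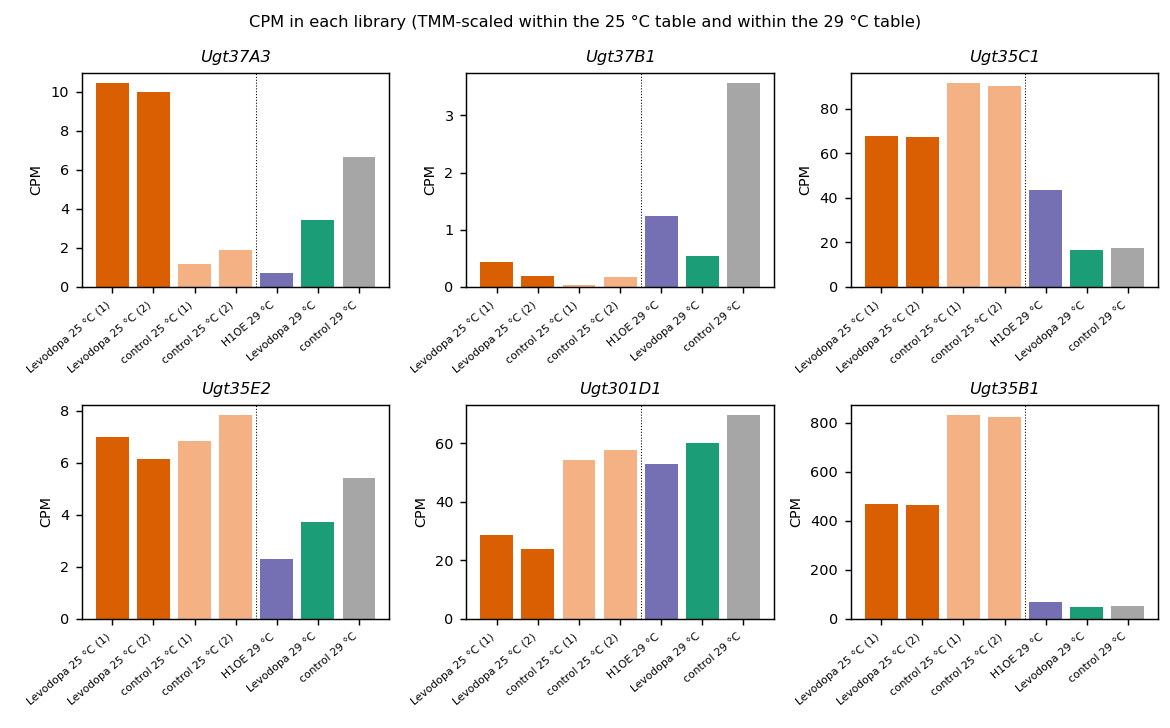
CPM of 6 genes in each library, scaled within the 25 °C and within the 29 °C table (dotted line between them; heights on its sides are not on 1 common scaling). Ugt37A3 stands at 10.4 and 9.97 CPM in Levodopa against 1.17 and 1.895 CPM in control at 25 °C, and at 0.694, 3.44 and 6.64 CPM in H1OE, Levodopa and control at 29 °C.

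The controls at 29 °C and 25 °C were set side by side in the deposited FPKM, with no test. They came from separate tables, so temperature, rearing, sequencing run and processing cannot be told apart. After 0.5 FPKM was added to both, 2 of 27 members were at least 2-fold higher at 29 °C and 3 were at least 2-fold lower. Over 11623 features 20.1% met that fold, in near equal numbers up and down, so the members' 5 of 27 was near the background. With counts scaled to column totals in place of FPKM, an alternative chosen after seeing the data, 4 members were higher and 5 lower of 27, beside 3019 of all 11623 features, or 26.0%. In FPKM the median log2 difference was -0.20 for the members and 0.09 for all features.

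Ugt35B1 had 31.1 FPKM in control 29 °C and 475 and 469 FPKM in the columns of control 25 °C, a 15.2-fold lower level at 29 °C. Only 71 of the 11623 features, or 0.611%, had a log2 difference as low or lower. Ugt35C1 had 10.6 FPKM in control 29 °C and 52.3 and 51.3 in control 25 °C, 4.88-fold lower at 29 °C. Both genes stood above 1 FPKM everywhere and were low in Levodopa 29 °C as well, at 28.3 and 10.1 FPKM.

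Ugt37A1 (2L 20372409 to 20374104) was listed at 0, 1 and 0 counts in H1OE, Levodopa and control at 29 °C. At 25 °C it had 24 and 24 counts in Levodopa and 22 and 24 in control. Between the controls, Ugt37B1 was higher at 29 °C, with 2.07 FPKM in control 29 °C and 0.02 and 0.10 in control 25 °C, and so was Ugt37A3, with 4.01 FPKM in control 29 °C and 0.67 and 1.1 in control 25 °C. In Levodopa flies Ugt37A3 stood the other way, with 2.10 FPKM at 29 °C and 6.6 and 6.25 FPKM at 25 °C. The 13 olfactory markers summed to 3103 FPKM in control 29 °C and 6788 and 6733 in control 25 °C. The 12 fat body markers summed to 3834 against 436 and 439 FPKM, of which Lsp1beta made 2198 against 20.15 and 22.54. The part of these differences in the Ugt values was not tested.

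The genes that supply or share the donor sugar had no member past both thresholds at 25 °C or past the size rule at 29 °C. Of the 8 UDP-sugar supply genes, which include the UDP-glucose pyrophosphorylase UGP and the UDP-glucose dehydrogenase sgl, 7 could be compared. For Levodopa at 25 °C, 6 of the 7 were lower at an edgeR adjusted p under 0.05 (also 6 unadjusted), by less than 2-fold. Of all features, 58.5% passed that adjusted p in either direction. UGP had 17934 counts in Levodopa and 23531 in control summed over columns, a log2 fold change of -0.67 (SE 0.02), and sgl was the gene that did not pass. The median log2 fold change of the 7 was -0.67 for Levodopa at 25 °C, with all 7 negative, and -0.19, 0.06 and 0.32 for Levodopa over control, H1OE over control and H1OE over Levodopa at 29 °C. The remaining gene, frc, was listed at 0 in all 7 libraries. Of the 4 other enzymes that use UDP-glucose, 3 differed at an edgeR adjusted p under 0.05 for Levodopa at 25 °C (4 unadjusted), with a median of -0.42. All 3 genes for P450 reductase and cytochrome b5 did so too (also 3 unadjusted), with a median of -0.44. None of these genes reached 2-fold in any comparison, and DESeq2 at 25 °C called none of them either.

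Of the 10 regulators of detoxification genes, 7 differed at an edgeR adjusted p under 0.05 for Levodopa at 25 °C (also 7 unadjusted). That was near the 58.5% of all features that passed it. Among these 7 regulators cnc, which encodes the fly counterpart of Nrf2, was higher by 0.44 on the log2 scale (SE 0.03, edgeR adjusted p = 6.09e-37). Its inhibitor Keap1 was higher by 0.33 (SE 0.10, edgeR adjusted p = 0.00145). EcR (0.69), Hr38 (0.60) and tgo (0.35) were higher too, whereas maf-S (-0.45) and Hr96 (-0.18) were lower, so the list had no common direction. None of the 10 reached 2-fold in any comparison, and DESeq2 called none at 25 °C. Their medians lay between -0.10 and 0.26 in the 4 comparisons. Of the 24 glutathione S-transferases of classes D and E, which join glutathione to reactive compounds, 21 were tested for Levodopa at 25 °C. By edgeR 18 of them differed at an adjusted p under 0.05, beside 58.5% of all features, and their median log2 fold change was -0.52. All 24 summed to 1781 and 1765 FPKM in Levodopa and 2514 and 2507 FPKM in control. Past both thresholds, GstD5 rose and GstE9 and GstE11 fell. GstD5 had 496 counts in Levodopa and 33 in control summed over columns, a log2 fold change of 3.62 (SE 0.24, edgeR adjusted p = 8.29e-49), and GstE9 had 8898 and 17379 counts, a log2 fold change of -1.24 (SE 0.03). None of 19 met the rule for Levodopa at 29 °C, and 3 of 19 were lower in H1OE than in control, with GstD8 at 23 against 105 counts and GstE4 at 299 against 972 counts. Of 4 sulfotransferase and acetyltransferase genes compared, AANAT1, which acetylates dopamine, was lower in H1OE, with 2539 counts against 4808 in control. For Levodopa at 25 °C, 3 of the 4 tested differed at an edgeR adjusted p under 0.05 (also 3 unadjusted), with a median of -0.64. None of the 4 reached 2-fold. AANAT1 was among the 3, with 7152 counts in Levodopa and 9009 in control summed over columns (log2 fold change -0.61, SE 0.04, edgeR adjusted p = 3.39e-61).

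Among the ABC exporters, Mdr50 differed between all 3 libraries at 29 °C. It had 775 counts in H1OE, 51 in Levodopa and 176 in control, and was past the size rule in every comparison of them. CG31792 had 25, 3 and 0 counts in the same order and met the rule for H1OE against each of the others. At 25 °C only Sur, the sulfonylurea receptor gene, passed, with 231 counts in Levodopa and 95 in control summed over columns (log2 fold change 1.01, SE 0.24, edgeR adjusted p = 8.31e-05). Mdr50 had 22 counts in Levodopa and 8 in control at 25 °C and did not pass (edgeR adjusted p = 0.293).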

How the data were processed

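Polyadenylated RNA was sequenced in 5 samples, 1 per group, and grouped by their labels. The authors deposited read counts per gene for every library, as whole numbers that were not normalized. The authors also deposited FPKM values under that name, a unit that divides counts by gene length and library size. HISAT2 2.2.1 and the dm6 build are named in the submitters' processing notes. What counted the reads, its strand mode and the annotation version are not given in the sources used here. Another 2 value columns of the 29 °C table belong to no sample of these labels and were not used. Features of both tables were joined by gene identifier and named with the symbols of the 29 °C table. Neighbouring members can resemble each other in sequence, and reads shared between them were not checked.

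At 25 °C, edgeR 4.0.16 (R 4.3.3) fitted quasi-likelihood models with TMM scaling to features with at least 10 counts in 1 column, each column as a library. Calls needed a Benjamini-Hochberg adjusted p under 0.05 over all features and a 2-fold change. The SE is the log2 fold change over the square root of F. At 29 °C the size rule added 10 counts at the mean scaled library size, and ratios of scaled counts have exact 95% intervals for counting alone. Both steps were also run on simulated data, which hold no measure of the variation between flies in these samples. Controls of the 2 temperatures were compared in FPKM plus 0.5. Alternatives covered scaling, DESeq2 1.42.0, count filters, added counts, fold minimum, gene length, FPKM and left-out columns. Symbols were matched to the BDGP6 annotation for exons. Every member may be named, with values in each library for members called, members that changed direction and the 5 highest in control 29 °C. The members, the gene lists and the rules were chosen with earlier results of these data known.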

Additional observations from a re-analysis of the deposited data

Results flagged for a closer look

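Of the members compared at both temperatures, 6 had log2 fold changes of Levodopa over control with opposite signs, and 2 of them were past the thresholds at 1 of the temperatures. For Ugt37A3 it was 2.72 at 25 °C, with both Levodopa columns above both control columns, and -0.88 at 29 °C, a gap of 3.59. For Ugt37B1 it was 1.43 at 25 °C, where the edgeR test did not pass, and -2.10 at 29 °C, a gap of 3.53. Neither difference between the temperatures was tested, since each 29 °C group was 1 library and the temperatures came from separate tables. The other 4 (Ugt317A1, Ugt35E1, Ugt302E1 and Ugt49C1) were past the thresholds at neither temperature. Their gaps were smaller, from 0.09 in Ugt49C1 to 0.99 in Ugt317A1 in size, and Ugt317A1 was at -0.90 at 25 °C and 0.09 at 29 °C.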

How the results depend on the processing

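Of the named members' log2 values under the alternatives at 25 °C, 293 kept their side of the thresholds, 5 passed in addition and 3 no longer passed. Changes of sign among values that met no threshold were not counted. No value that met the thresholds in any comparison changed sign under the alternatives run. For Levodopa at 25 °C the 2 members called became 7 with a 1.5-fold minimum (1 higher, 6 lower) and 1 with total-count scaling or with the trend on gene length removed. Leaving out 1 column at a time gave 1 to 2 members called, the lower value without the second Levodopa column, where Ugt301D1 was at -0.98. The numbers of the columns gave the replicate block: with it, 2 members were called and no call of a member changed, but the labels do not say that equal column numbers share flies. DESeq2 and other count filters also gave 2. For Levodopa at 29 °C the 1 member past the size rule became 2 with 3 counts added, where Ugt305A1 was at 1.12, and 3 with a 1.5-fold minimum. For H1OE over control the 5 members became 2 with 30 counts added, 2 with the counting interval required to lie past 2-fold, 3 with deposited FPKM and 8 with a 1.5-fold minimum. For H1OE over Levodopa the 3 members became 8 with a 1.5-fold minimum and were 2 to 4 otherwise. Between the controls of the temperatures, 5 of 27 members became 9 with counts scaled to column totals (20.1% and 26.0% over all features), and were 5 without either control column. The causes of these shifts were not tested. Over all features the same settings moved the calls more than 1.5 times: 609 to 2503 at a 1.5-fold minimum (Levodopa, 25 °C) and to 399 with a filter of 50 counts, 300 to between 52 and 1112 (Levodopa, 29 °C), 808 to between 329 and 2070 (H1OE over control) and 700 to between 283 and 1967 (H1OE over Levodopa). Members under about 10 counts were not resolved at this depth, and with 1 sample per group no variation between flies was measured.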
